A study of Mus musculus with 4 samples.

Results

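Ribosome biogenesis and the RNA polymerases I and III were followed through 66 genes in mouse mammary tumours with and without a working Nr1d1 gene. The members were chosen by symbol, with earlier results of these data known. They are the genes whose symbols begin with Polr1, Polr3, or Nop, Utp, Rrp or Exosc followed by a digit, together with Rrs1, Bop1, Pes1, Ncl, Npm1, Fbl, Dkc1, Nhp2, Gar1, Ubtf, Rrn3, Taf1a, Taf1b, Taf1c, Nolc1, Nip7 and Ebna1bp2. The count tables held 23282 entries, and all 66 members were among the 14801 genes with enough counts to be tested. Counts of single members in single libraries ran from 17 for Utp14b to 47427 for Npm1.

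Tumours came from the mammary glands of female FVB mice that carried PyMT, the polyoma virus middle T antigen, an oncogene that causes mammary carcinoma when expressed in the gland. At 14 weeks of age, 2 samples were labelled Nr1d1+/+;PyMT and 2 were labelled Nr1d1-/-;PyMT, so PyMT was shared by both groups. Nr1d1 encodes REV-ERBα, a nuclear receptor that represses transcription and belongs to the circadian clock. The labels name neither the promoter that drives PyMT nor the exons removed from the null allele, and whether each sample was a different animal is not stated, so each p-value below rests on the spread between samples that may be technical repeats. Nr1d1 itself stood at 20.2 and 10.3 CPM in the Nr1d1+/+ libraries and at 10.6 and 12.8 CPM in the libraries labelled Nr1d1-/- (log2 fold -0.37, SE 0.35, edgeR adjusted p = 0.436). Its value in Nr1d1+/+ replicate 2 lay below both libraries labelled Nr1d1-/-, and the log2 fold was 0.14 without Nr1d1+/+ replicate 1. Every direction given here therefore rests on the labels alone. CPM are edgeR's depth-scaled counts after TMM scaling, which sets the bulk of genes to the same level in each library, and each pair of values is given as replicate 1 and then replicate 2.

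A ribosome starts as a long precursor RNA that RNA polymerase I transcribes from repeated genes in the nucleolus. Small nucleolar ribonucleoproteins (snoRNPs) modify that precursor, a large assembly called the small-subunit processome and a series of large-subunit factors fold and cut it, and the RNA exosome trims and degrades its by-products. RNA polymerase III makes the remaining ribosomal RNA, the 5S species, along with transfer RNAs. Growing tumour cells are known to carry enlarged nucleoli, and the transcription factor MYC is a known activator of many of these genes.

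In the libraries labelled Nr1d1-/-, 9 of the 66 members rose and 4 fell, and 53 did not pass the test (edgeR quasi-likelihood test, Benjamini-Hochberg adjusted p under 0.05 over all tested genes). The 9 that rose were Fbl, Nop56 and Nhp2 of the snoRNPs, Bop1 and Nip7 of large-subunit assembly, and Exosc2, Exosc4, Exosc5 and Exosc8 of the RNA exosome. Polr3f, Rrp1b, Utp15 and Utp20 fell. Among all tested genes 16.5% were called higher and 17.3% lower, against 13.6% and 6.06% of the members, so the share of members called was not above the background in either direction. The 16.5% and 17.3% are also the background for the edgeR counts by role below. The genotypes did not overlap for 27 members on the higher side and 21 on the lower side, that is 40.9% and 31.8% of members, beside 34.4% and 36.2% of all tested genes. The members' median log2 fold was 0.12 and that of all tested genes -0.01. Individual changes were mostly small. The median absolute log2 difference between genotypes was 0.35 over the members and 0.65 over all tested genes, whereas replicates differed by 0.20 (Nr1d1+/+) and 0.23 (Nr1d1-/-) over the members and by 0.26 and 0.33 over all tested genes. Only 3 called members, Fbl, Exosc5 and Utp15, changed at least 2-fold. The counts depended on single libraries: 4 members were higher and 2 lower when Nr1d1+/+ replicate 1 was left out. Leaving out Nr1d1+/+ replicate 2 gave 2 and 2, leaving out Nr1d1-/- replicate 1, the library with skeletal muscle transcripts described below, gave 4 and 4, and leaving out Nr1d1-/- replicate 2 gave 7 and 3. Fbl was the only member called in all 4 of those fits, although each of the 13 called members kept its sign in them. Among all tested genes too, smaller shares were called higher and lower in each of those fits, which leave 1 sample in 1 group. Scaling by library size alone turned the split to 2 higher and 14 lower, beside a background of 8.65% higher and 29.8% lower. The median of all tested genes then moved to -0.38 and that of the members to -0.25. The members' median lay 0.13 above that of all tested genes under both scalings. That gap could hardly differ, since the change of scaling moved nearly every gene by the same amount, so it is no check on the scaling.

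**Figure D1:**
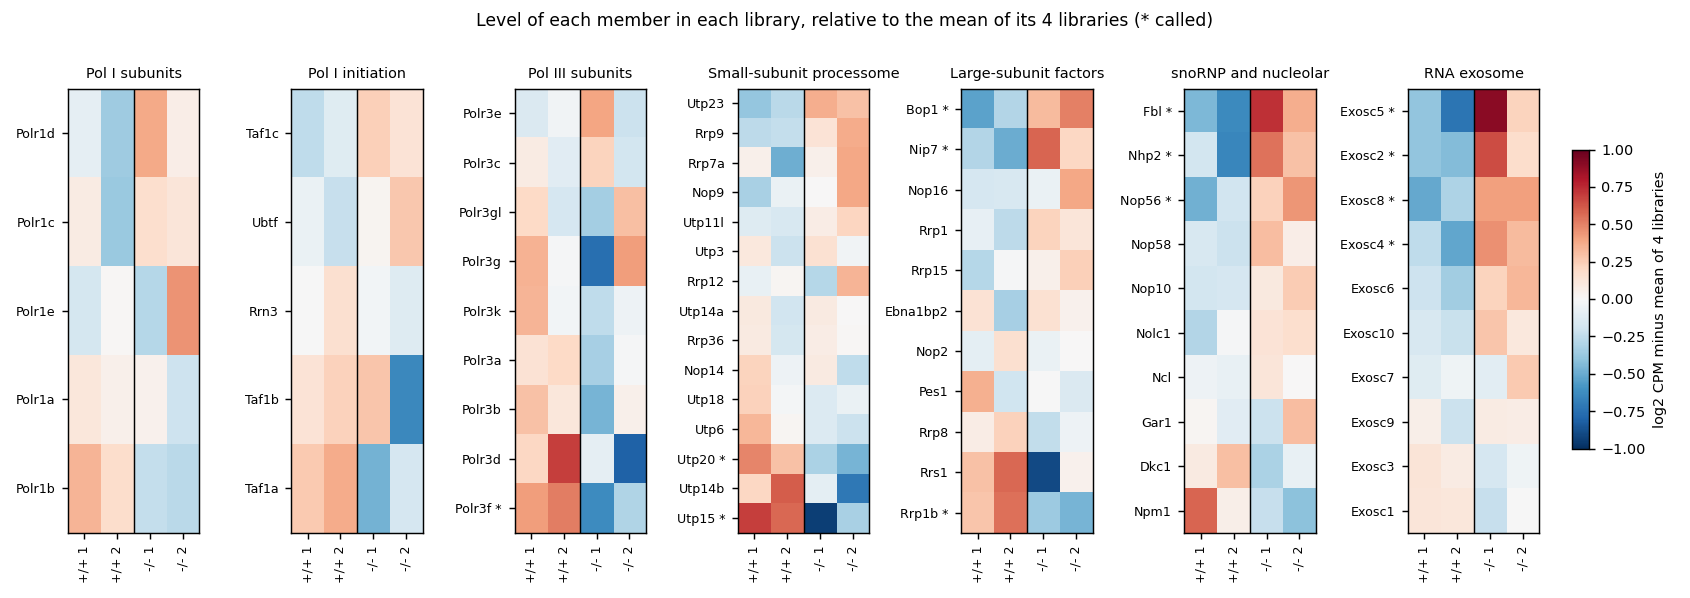
Heat map of 65 of the 66 members in the 4 libraries, in 7 panels by role; colour gives the log2 CPM of a library minus the mean of the member's 4 libraries, from -1 (blue) to 1 (red), columns are the Nr1d1+/+ replicates and the replicates labelled Nr1d1-/-, and an asterisk marks a called member. Most of the 10 exosome genes turn from blue to red across the line between genotypes, while Exosc1 and Exosc3 turn the other way. The polymerase I panels hold both patterns and no called member.

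The libraries also differed outside these genes, and those values stand here once. Total counts ran from 15905404 to 19116279. The luminal markers Krt8 and Krt18 and the epithelial marker Epcam were each above 700 CPM in every library, so the defining markers of the labelled tissue were present. The 7 luminal markers summed to 6194 and 5382 CPM in the Nr1d1+/+ libraries against 9851 and 9038 CPM, with Krt8, Krt18 and Krt19 higher and Cdh1 and Erbb3 lower by edgeR. The 4 basal and myoepithelial markers summed to 135 and 148 against 316 and 428 CPM, with Krt14 and Acta2 higher and Trp63 lower. Nr1d1-/- replicate 1 stood apart by skeletal muscle transcripts: the 4 markers Acta1, Ckm, Myh4 and Mylpf summed to 326 CPM there and to between 1.29 and 2.92 CPM in the other 3 libraries, where Myh4 had at most 3 counts. Summed red blood cell markers (4 of 4 higher by edgeR) were 449 and 576 CPM in the Nr1d1+/+ libraries against 2009 and 2180 CPM, and 3 adipocyte markers (2 of 3 higher) summed to 24.4 and 42.4 against 113 and 87.6 CPM. Leukocyte markers summed to 23.4 to 38.8 CPM. The 4 fibroblast markers summed to 381 and 544 against 684 and 646 CPM, with Col1a1 higher by edgeR and 3 not called. The 3 endothelial markers summed to 29.7 and 37.1 against 31.2 and 42.6 CPM, with Pecam1 higher by edgeR and Cdh5 and Kdr not called. Of 8 proliferation markers 0 were called by edgeR or DESeq2, 1 of them (Top2a) had an unadjusted edgeR p under 0.05 (0.0194), and their sum was 543 and 687 against 555 and 494 CPM. With library size only, 2 of the 8, Mki67 and Top2a, were called lower by edgeR, beside 29.8% of all tested genes. The part of these differences in the results below was not tested, and in bulk tissue fewer cells of a type and less RNA per cell cannot be told apart.

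Promoter sequence was available for 53 of the 66 members from RefSeq (GRCm38.p6), and the 250 bases before each start were searched on both strands. The E-box CACGTG, a palindrome that both MYC and the clock activators can bind, was present before 8 members, or 15.1%, against 6.86% of all genes with a window. Those 8 were Rrn3, Polr3c, Polr3gl, Utp14b, Utp18, Rrp7a, Nop2 and Exosc5, of which only Exosc5 was called. The nuclear receptor half-site AGGTCA was present before 6 members (11.3%, against 15.8% of all genes). The longer monomeric REV-ERB response element is the same half-site with an AT-rich flank. It was searched in a strict spelling only, with A, A, any base and T directly before the half-site. That spelling was before none of the members (0.211% of all genes). Other spellings of the flank were not searched, and the AGGTCA match of Nop58 lies next to a run of A and T. CCGGAAGT, an ETS-type element, was before 8 members (15.1%, against 3.23% of all genes), among them the called members Nip7 and Nhp2. The stretches below are shown because they belong to called members, or, for Rrn3 and Nop2, because they carry the E-box before well-studied nucleolar genes that were not called. Each reads 5′ to 3′ on the gene's strand with the matched letters in capitals, or their reverse complement where the match lies on the other strand, and none overlaps an annotated exon.
Exosc5 (E-box, chr7:25659089-25659134, plus strand): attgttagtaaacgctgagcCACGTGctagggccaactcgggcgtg
Nip7 (ETS-type, chr8:107056754-107056801, plus strand): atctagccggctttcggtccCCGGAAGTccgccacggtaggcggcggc
Nhp2 (AGGTCA on the other strand, chr11:51619614-51619659, plus strand): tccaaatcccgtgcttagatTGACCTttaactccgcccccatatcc
Rrn3 (distal E-box, chr16:13780464-13780509, plus strand): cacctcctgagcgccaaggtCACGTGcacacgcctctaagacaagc
Rrn3 (proximal E-box, chr16:13780631-13780676, plus strand): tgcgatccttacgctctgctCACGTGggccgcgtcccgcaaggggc
Nop2 (E-box, chr6:125131803-125131848, plus strand): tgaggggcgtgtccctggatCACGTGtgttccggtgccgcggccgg
In Rrn3 the distal E-box overlaps an AGGTCA match that begins 4 bases before it. A match is a description of letters, not evidence of binding, and these data hold no measure of binding.

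The subunits of RNA polymerase I did not move as a group: 0 of 5 passed the test by edgeR or DESeq2, 1 (Polr1d) at an unadjusted p under 0.05, with a median log2 fold of 0.21 under TMM scaling and -0.16 with library size only. Polr1a, the largest and catalytic subunit, stood at 46.6 and 44.8 CPM in the Nr1d1+/+ libraries and at 44.4 and 37.4 CPM in those labelled Nr1d1-/-. The upper Nr1d1-/- value lay just below the lower Nr1d1+/+ value, with -0.16 as the log2 fold (SE 0.20, edgeR adjusted p = 0.552). Polr1b, the second-largest subunit, was at 21.1 and 18.8 CPM against 14.1 and 13.8 CPM, without overlap, and its log2 fold of -0.52 (SE 0.24) did not pass (edgeR adjusted p = 0.13). Polr1c and Polr1d, which are shared with RNA polymerase III, had log2 folds of 0.28 and 0.45 (edgeR adjusted p = 0.376 and 0.0992), and Polr1e had 0.21. The summed level of the 5 subunits was 268 and 230.2 CPM in the Nr1d1+/+ libraries and 320.3 and 277 CPM in the libraries labelled Nr1d1-/-.

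The initiation factors of RNA polymerase I were likewise uncalled in 5 of 5 cases (0 by edgeR, by DESeq2 or at an unadjusted p under 0.05), with log2 folds from -0.62 to 0.37. Ubtf, which encodes the nucleolar protein UBF that keeps ribosomal RNA genes open, stood at 313 and 280 CPM against 334 and 395 CPM. Both libraries labelled Nr1d1-/- lay above both Nr1d1+/+ libraries, but the log2 fold of 0.30 (SE 0.18) did not pass (edgeR adjusted p = 0.224). Rrn3, which recruits the polymerase to its promoter, was at 16.8 and 18.8 CPM against 16.5 and 15.4 CPM (log2 fold -0.16, SE 0.24, edgeR adjusted p = 0.631). Of the promoter selectivity factor subunits, Taf1a had a log2 fold of -0.62, Taf1b of -0.30 and Taf1c of 0.37, with edgeR adjusted p-values of 0.148, 0.478 and 0.402.

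In RNA polymerase III, 1 of 10 subunits fell and 9 did not pass (2 lower by DESeq2, Polr3d added), and their median log2 fold of -0.26 moved to -0.02 after removal of GC and length trends and to -0.63, with 3 lower, under library size only. Polr3f (chromosome 2, 144527718 to 144541995, plus strand), a subunit of the initiation subcomplex, stood at 16.3 and 17.4 CPM in the Nr1d1+/+ libraries and at 7.92 and 9.93 CPM in those labelled Nr1d1-/-. The groups did not overlap, and the level fell by 0.91 on the log2 scale (SE 0.27, edgeR adjusted p = 0.0321). That call was lost when Nr1d1+/+ replicate 1 or 2 (edgeR adjusted p = 0.0891 and 0.152) or Nr1d1-/- replicate 1 (0.102) was left out. Polr3d, a small subunit, was at 19.9 and 27.7 CPM against 16.2 and 9.8 CPM, with a log2 fold of -0.88 (SE 0.31) that just missed the threshold (edgeR adjusted p = 0.0562). In edgeR it passed with a replicate block (adjusted p = 0.0496), library size only (0.0114) and GC and length trends removed (0.0364). By DESeq2 the adjusted p was 0.0443. The size of the fall depended on the libraries kept. The log2 fold of Polr3d was -1.15 and -0.65 when Nr1d1+/+ replicates 1 and 2 were left out in turn. It was -1.28 and -0.57 when Nr1d1-/- replicates 1 and 2 were. The catalytic subunits Polr3a and Polr3b had log2 folds of -0.33 and -0.39 (SE 0.25 and 0.26), and neither passed (edgeR adjusted p = 0.334 and 0.284). Polr3g and Polr3gl encode alternative versions of the same subunit, the former known from stem and tumour cells. Polr3g was at 6.62 and 5.17 CPM against 3.08 and 6.95 CPM and Polr3gl at 44.5 and 34.5 CPM against 30.6 and 47.8 CPM. Both overlapped between genotypes, with log2 folds of -0.21 (SE 0.44) and -0.01 (SE 0.26), and in both pairs the lowest value was that of Nr1d1-/- replicate 1.

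**Figure D2:**
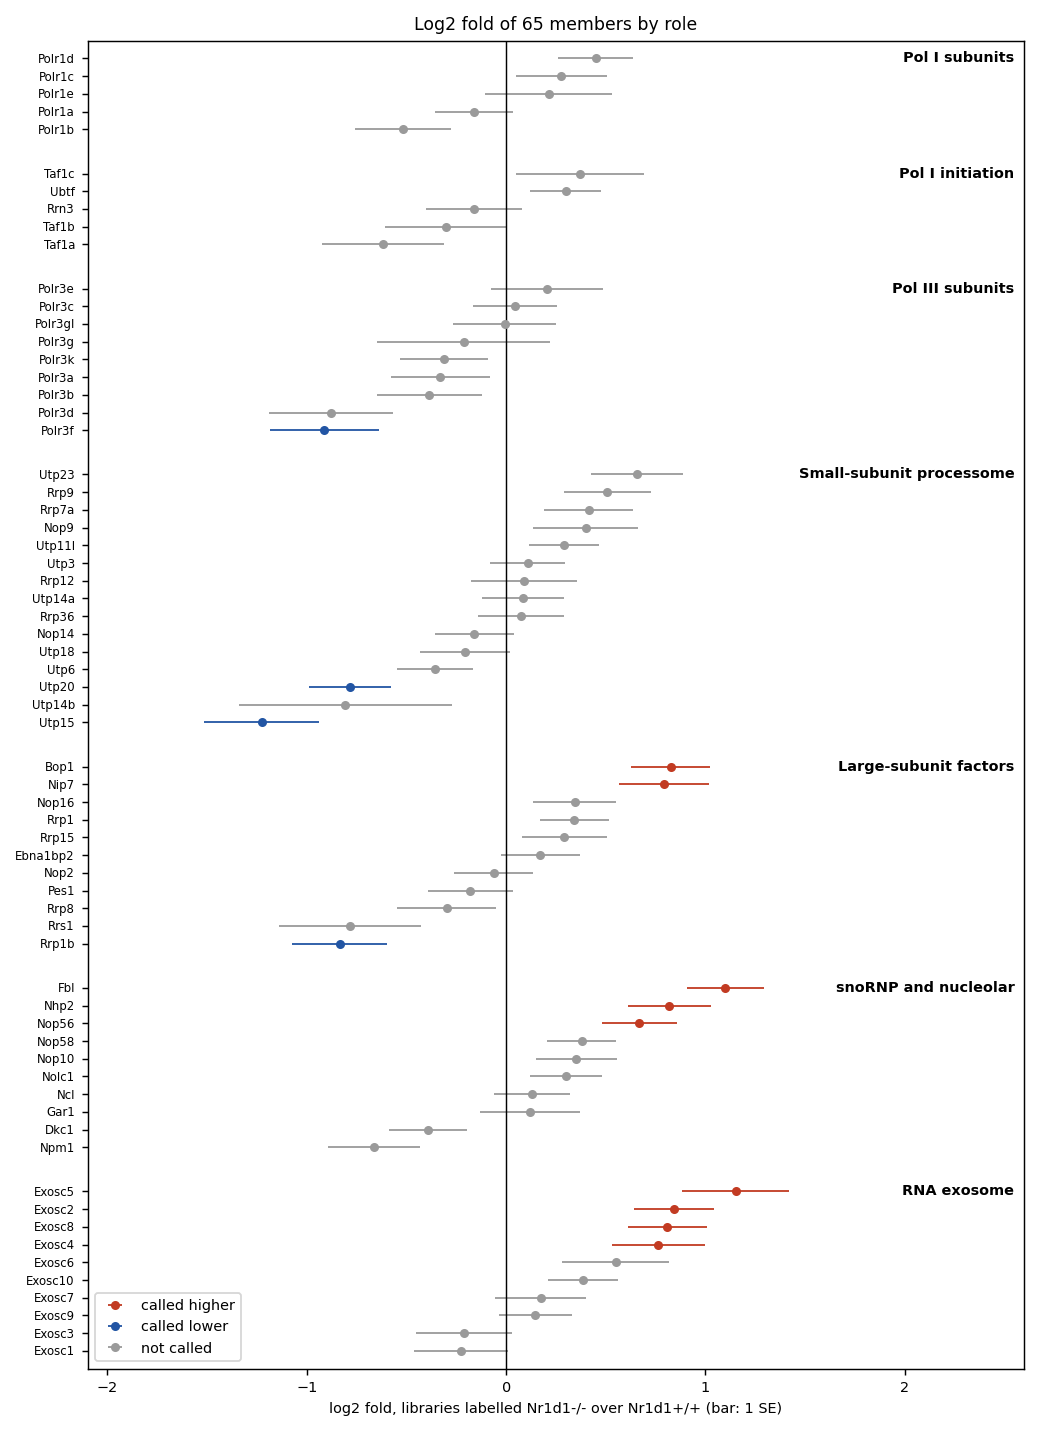
Log2 fold (horizontal axis, libraries labelled Nr1d1-/- over Nr1d1+/+) of 65 of the 66 members with a bar of 1 SE, grouped by role; red marks members called higher, blue called lower and grey not called. The called members that are higher lie in the large-subunit, snoRNP and exosome groups and those that are lower in the polymerase III, small-subunit and large-subunit groups.

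The small-subunit processome had 2 members that fell among 15, 0 that rose by edgeR or DESeq2 (2 at an unadjusted p under 0.05, Utp23 and Rrp9), and a median log2 fold of 0.09 (-0.29 with library size only). Utp15 (chromosome 13, 98246845 to 98263041, minus strand), part of the subcomplex that joins the precursor first, stood at 21.9 and 20.1 CPM against 7.04 and 10.8 CPM. Both Nr1d1-/- values lay far below the Nr1d1+/+ ones, and Utp15 had the largest fall of the 66 members, by 1.23 on the log2 scale (SE 0.29, edgeR adjusted p = 0.0134). Without Nr1d1+/+ replicate 1 its edgeR adjusted p was 0.0528. Utp20 (chromosome 10, 88746607 to 88826804, minus strand), a very large scaffold protein, was at 46 and 40.3 CPM against 26.4 and 23.8 CPM, again without overlap. It fell by 0.78 (SE 0.21, edgeR adjusted p = 0.0202), and the adjusted p was 0.0972 and 0.0563 when Nr1d1+/+ replicates 1 and 2 were left out in turn and 0.0551 without Nr1d1-/- replicate 2. Nop14, another core factor, was at 109 and 90.3 CPM against 99.6 and 78.4 CPM (log2 fold -0.16, SE 0.20, edgeR adjusted p = 0.56). Utp23, at 14.5 and 15.7 CPM against 24.3 and 23.2 CPM, missed the threshold on the higher side (log2 fold 0.66, SE 0.23, edgeR adjusted p = 0.0557) and passed it after removal of GC and length trends (0.0185). The 13 uncalled members ran from -0.81 (Utp14b, under 3 CPM in each library) to 0.66. Utp14b shares exon sequence with Acsl3 on the same strand, so its counts are uncertain.

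Among 11 large-subunit and other assembly factors, 2 rose and 1 fell, with a median of 0.17 (-0.20 with library size only). Bop1 (chromosome 15, 76452989 to 76477277, minus strand), a scaffold of large-subunit assembly, stood at 31.3 and 36.9 CPM against 56.4 and 64.3 CPM. The groups were well apart, and the level rose by 0.83 on the log2 scale (SE 0.20, edgeR adjusted p = 0.0145), or 0.113 as the adjusted p without Nr1d1+/+ replicate 1. Pes1 encodes the direct partner of the Bop1 protein and did not move with it: it was at 226 and 154 CPM against 176 and 160 CPM, and did not pass (log2 fold -0.18, SE 0.21, edgeR adjusted p = 0.541). The difference between the Bop1 and Pes1 folds was not tested. Nip7 (chromosome 8, 107056877 to 107060931, plus strand), a large-subunit assembly factor, was at 25.3 and 21.9 CPM against 46.2 and 35.7 CPM and rose by 0.79 (SE 0.22, edgeR adjusted p = 0.0264). Its adjusted p was 0.0749 or 0.166 when Nr1d1+/+ replicate 1 or 2 was left out and 0.112 when Nr1d1-/- replicate 1 was. Nip7 was also the only one of the 13 called members that passed after GC and transcript-length trends were taken out without a replicate block (log2 fold 1.11, edgeR adjusted p = 0.0119).

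The paralogs Rrp1 and Rrp1b had folds of opposite sign. Rrp1 was at 324 and 286 CPM against 400 and 373 CPM, without overlap, and its log2 fold of 0.34 (SE 0.17) did not pass (edgeR adjusted p = 0.154). It was -0.036 with library size only. Rrp1b (chromosome 17, 32036100 to 32062865, plus strand) was at 23.6 and 28.5 CPM against 15.1 and 14.1 CPM and fell by 0.84 (SE 0.24, edgeR adjusted p = 0.0271). Its call was lost without Nr1d1+/+ replicate 2 (0.174) or Nr1d1-/- replicate 2 (0.0636). Rrs1, needed for early large-subunit assembly, did not pass (log2 fold -0.78, SE 0.35, edgeR adjusted p = 0.12) and had its lowest value, 5.28 CPM, in Nr1d1-/- replicate 1. Its log2 fold was -0.40 without that library and -1.36 without Nr1d1-/- replicate 2, where it was called (edgeR adjusted p = 0.0245), as it was with library size only (0.0332).

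Of 10 snoRNP and nucleolar proteins, 3 rose and 0 fell by edgeR (1, Npm1, by DESeq2 and at an unadjusted p under 0.05), and the median log2 fold was 0.33 (-0.06 with library size only). Fbl (chromosome 7, 28169710 to 28179269, plus strand) encodes fibrillarin, the methyltransferase of box C/D snoRNPs. It stood at 92.7 and 81.5 CPM in the Nr1d1+/+ libraries and at 210 and 163 CPM in those labelled Nr1d1-/-. The lower Nr1d1-/- value was well above both Nr1d1+/+ values. Fbl rose by 1.10 on the log2 scale (SE 0.19) and had the lowest p of the 66 members (edgeR adjusted p = 0.00461), with log2 folds from 0.90 to 1.25 and adjusted p-values of at most 0.0279 when any library was left out. After removal of GC and length trends the fold of Fbl was 0.50 on the log2 scale (edgeR adjusted p = 0.0892).

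Fibrillarin's partners in the box C/D particle, Nop56 and Nop58, are paralogs. Nop56 (chromosome 2, 130274430 to 130279313, plus strand) was at 79.2 and 97.1 CPM against 130 and 150 CPM and rose by 0.67 (SE 0.19, edgeR adjusted p = 0.026). Its adjusted p was 0.195 and 0.0563 when Nr1d1+/+ replicates 1 and 2 were left out in turn and 0.0948 without Nr1d1-/- replicate 2. Nop58 was at 202 and 195 CPM against 280 and 236 CPM, also without overlap, and its log2 fold of 0.38 (SE 0.17) did not pass (edgeR adjusted p = 0.124). It was -0.0027 with library size only. Genes for snoRNAs lie within exons or introns of Nop56, Ncl and Nop58, so part of their counts may belong to those small RNAs.

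In the box H/ACA particle, which converts uridine to pseudouridine, 1 of 4 core genes passed. Nhp2 (chromosome 11, 51619735 to 51623714, plus strand), a core protein, was at 96.7 and 70.2 CPM against 160 and 135 CPM and rose by 0.82 (SE 0.21, edgeR adjusted p = 0.0178), with adjusted p-values of 0.136 without Nr1d1+/+ replicate 2 and 0.0611 without Nr1d1-/- replicate 1. The fold of Nhp2 was 0.30 and not called after removal of GC and length trends. Dkc1, the pseudouridine synthase of the same particle, was at 57.5 and 66.3 CPM against 43.3 and 51.1 CPM, lower in both libraries labelled Nr1d1-/-, and did not pass (log2 fold -0.39, SE 0.20, edgeR adjusted p = 0.152). Nop10 and Gar1, the remaining core proteins, had log2 folds of 0.35 and 0.12 (edgeR adjusted p = 0.21 and 0.74). The abundant nucleolar protein genes did not pass either. Npm1, which encodes nucleophosmin, stood at 2240 and 1560 CPM against 1280 and 1130 CPM, just outside the threshold (log2 fold -0.66, SE 0.23, edgeR adjusted p = 0.0542). The groups were apart, but the Nr1d1+/+ replicates were themselves far apart. The edgeR adjusted p was 0.0167 with a replicate block, 0.00318 with library size only and 0.117 after removal of GC and length trends. By DESeq2 the adjusted p was 0.0156. The log2 fold of Npm1 was -0.43 and -0.93 when Nr1d1+/+ replicates 1 and 2 were left out in turn. It was -0.76 and -0.59 when Nr1d1-/- replicates 1 and 2 were. Ncl, which encodes nucleolin, was at 1490 and 1470 CPM against 1680 and 1550 CPM (log2 fold 0.13, SE 0.19, edgeR adjusted p = 0.632).

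**Figure D3:**
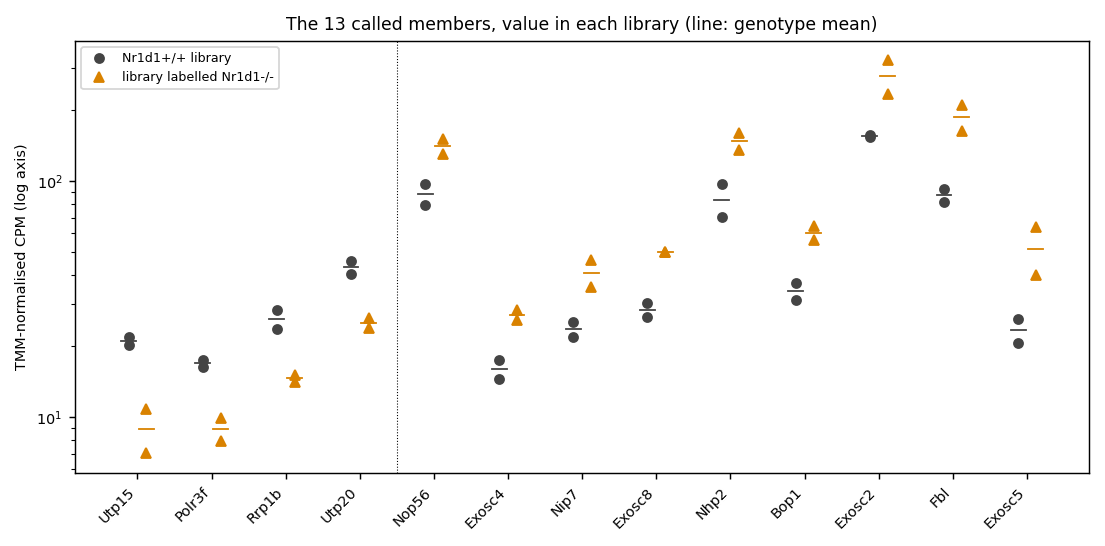
TMM-normalised CPM (log axis) of the 13 called members in each library, with dots for Nr1d1+/+ libraries, triangles for libraries labelled Nr1d1-/- and a line at each genotype mean; the 4 members left of the dotted line fell and the 9 to its right rose. No called member overlaps between genotypes, and for Exosc5 and Exosc2 the replicates labelled Nr1d1-/- are the farther apart.

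The RNA exosome had the highest median of the 7 roles, 0.47 (0.09 with library size only). Of its 10 genes, 4 rose while 0 fell by edgeR, by DESeq2 or at an unadjusted p under 0.05. By edgeR 16.5% of all tested genes were called higher and 17.3% lower. After removal of GC and length trends the exosome median was 0.23, below the 0.37 of the snoRNP and nucleolar proteins, and all 4 calls were lost. Of 8 further exosome and partner genes outside the members, 7 had negative folds, 0 were called higher and 1, Xrn2, was called lower. Their median log2 fold was -0.53, or -0.16 after removal of those trends. The summed level of the 10 exosome members was 451 and 425 CPM in the Nr1d1+/+ libraries and 712 and 595 CPM in those labelled Nr1d1-/-. Exosc5 (chromosome 7, 25659164 to 25671368, plus strand), a protein of the ring through which RNA is threaded, stood at 26 and 20.5 CPM against 63.7 and 39.8 CPM. The higher of those values came from Nr1d1-/- replicate 1, the library with skeletal muscle transcripts. Exosc5 rose by 1.15 (SE 0.27, edgeR adjusted p = 0.0126), and without Nr1d1-/- replicate 1 the log2 fold was 0.77 (edgeR adjusted p = 0.0542), while without Nr1d1+/+ replicate 2 the adjusted p was 0.0736. Exosc2 (chromosome 2, 31670715 to 31681349, plus strand), which caps the ring and binds RNA, was at 157 and 153 CPM against 324 and 233 CPM and rose by 0.84 (SE 0.20, edgeR adjusted p = 0.0136). Its highest value also came from Nr1d1-/- replicate 1, without which the log2 fold was 0.58 (edgeR adjusted p = 0.0658), and without Nr1d1+/+ replicate 2 the adjusted p was 0.0626.

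Exosc8 and Exosc4 belong to the same ring. Exosc8 (chromosome 3, 54728678 to 54735393, minus strand) was at 26.5 and 30.5 CPM against 50.1 and 50 CPM, so that its replicates labelled Nr1d1-/- were nearly equal. It rose by 0.81 (SE 0.20, edgeR adjusted p = 0.0153), with adjusted p-values of 0.119 without Nr1d1+/+ replicate 1 and 0.06 without Nr1d1+/+ replicate 2. Exosc4 (chromosome 15, 76327397 to 76330677, plus strand) was at 17.4 and 14.5 CPM against 28.4 and 25.8 CPM and rose by 0.76 (SE 0.23, edgeR adjusted p = 0.0344). It was not called in any fit without 1 library, where the adjusted p was 0.0926, 0.23, 0.0986 and 0.0515 in the order of the libraries. Exosc10, the nuclear exonuclease attached to the ring, was at 70.5 and 67.3 CPM against 95.4 and 84.8 CPM, without overlap, and did not pass (log2 fold 0.39, SE 0.18, edgeR adjusted p = 0.124). The 6 uncalled exosome genes ran from -0.23 (Exosc1) to 0.55 (Exosc6, which shares exon sequence with Aars, and whose fold was -0.42 after removal of GC and length trends).

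Overlapping genes bear on many of these values, since the use of strand in counting was not given in the sources used here. Exons of 24 members overlap an exon of a gene on the opposite strand, among them 8 of the 13 called members. Bop1 overlaps Mroh1 (log2 fold 0.16), Exosc4 overlaps Oplah (0.64), Nop56 overlaps Idh3b (0.08) and Rrp1b overlaps Hsf2bp (1.27), and none of those partners was called. Supt20, which overlaps Exosc8, and Rmnd5b, which overlaps Nhp2, were lower by edgeR (log2 fold -1.79 and -0.83, adjusted p = 0.00519 and 0.0229), so there the partner moved the other way. Exosc2 and Exosc5 overlap Gm13427 and Tmem91, which had no tested value. Fbl, Nip7, Polr3f, Utp15 and Utp20 have no such overlap.

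The members that rose had shorter transcripts than those that fell. The 9 higher members had annotated transcripts of 1020 to 3036 bases with 45.4% to 61.1% GC, and the 4 lower members had 4120 to 8821 bases with 41.8% to 52.7% GC. The transcript lengths did not overlap, but the coding lengths did, at 459 to 2196 bases for the higher and 948 to 8367 bases for the lower members. Across the 66 members, log2 fold and transcript length had a Spearman rho of -0.39 and log2 fold and GC content one of 0.46, and over all tested genes with an annotated transcript the values were -0.32 and 0.32. These are descriptions across genes, which share the same 4 libraries. When each library's GC and length trends were removed, the 13 called members all kept their sign, with log2 folds from 0.29 to 1.11 for the 9 higher and from -0.80 to -0.38 for the 4 lower ones. The calls then were Ncl, Nip7, Nop58 and Utp23 higher and Polr3d lower, 4 and 1 of 66 beside a background of 11.3% and 10.6%, and only Nip7 was shared with the calls above. The annotated transcripts used for Ncl (8202 bases) and Nop58 (9507 bases) are far longer than their coding sequences (2121 and 1608 bases). With coding length in place of transcript length, an alternative chosen after seeing the data, 8 of 66 members were higher and 1, Polr3d, was lower. The background in that fit was 10.3% higher and 10.4% lower. Of the 8, 5 (Bop1, Exosc2, Fbl, Nip7 and Nop56) were shared with the reported calls, and the other 3 were Ncl, Nop58 and Exosc10. A replicate block together with removal of GC and transcript-length trends gave 6 higher members, with Exosc2 and Nop56 added, and 3 lower ones, Npm1, Polr3d and Rrs1. The background there was 13.2% higher and 12.3% lower. Which of the genotype and the library's length and GC profile a member's difference follows cannot be told apart, because the profiles differed with the genotype label.

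**Figure D4:**
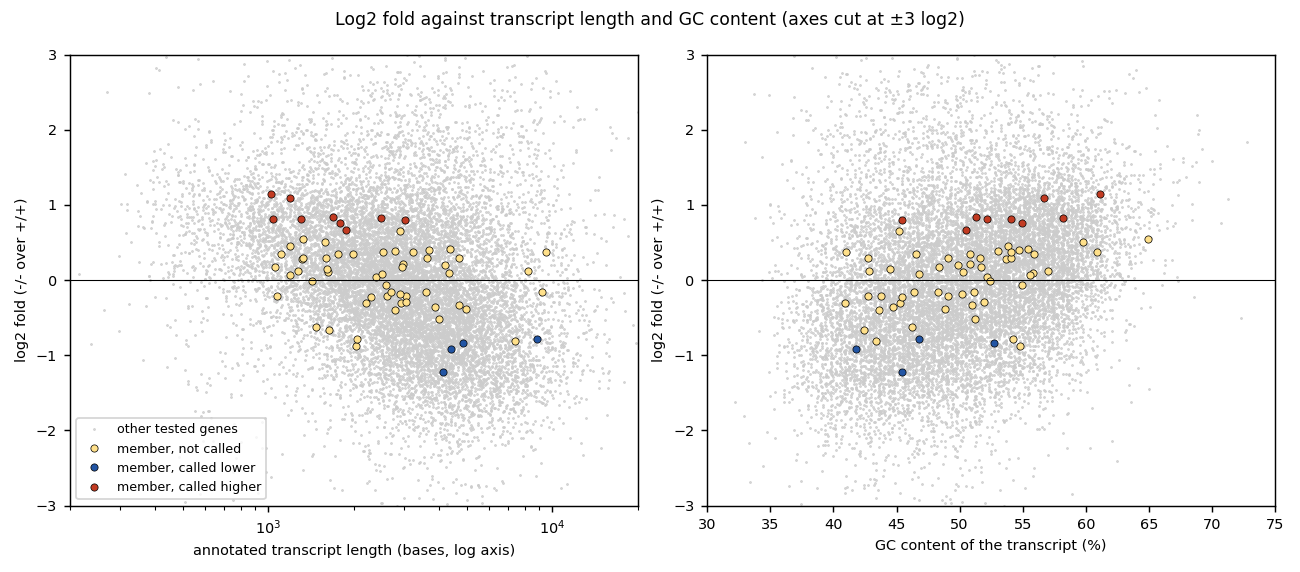
Log2 fold (libraries labelled Nr1d1-/- over Nr1d1+/+, 154 genes with an absolute log2 fold over 3 not drawn) against annotated transcript length in bases (left, log axis) and GC content in percent (right); grey points are other tested genes, yellow points uncalled members, red points members called higher and blue points members called lower. The 9 red points sit at 1020 to 3036 bases and the 4 blue points at 4120 bases and above.

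The rest of the pathway was 133 further genes, all tested, chosen by function with earlier results of these data known. It had 22 higher and 13 lower genes and a median log2 fold of -0.05. That is 16.5% and 9.77%, beside 16.5% and 17.3% of all tested genes, and 9 and 6 genes without Nr1d1+/+ replicate 2. Subunits shared by the RNA polymerases I, II and III were higher in 4 of 5 cases: Polr2f by 1.23 (SE 0.19), Polr2e by 1.20 (SE 0.19), Polr2l by 1.05 (SE 0.25) and Polr2k by 0.64 (SE 0.20). Once those trends of GC and length were removed, 1 of the 5 passed, Polr2l. Cd3eap, a further polymerase I subunit, stood at 53 and 59.8 CPM against 186 and 131 CPM and rose by 1.49 (SE 0.21, edgeR adjusted p = 0.00275). Ttf1, which terminates polymerase I transcription, rose from 56.3 and 48.9 to 155 and 111 CPM, by 1.34 (SE 0.21, edgeR adjusted p = 0.00347). Tbp, the TATA-binding protein used by all 3 polymerases, Baz2a, a silencer of ribosomal RNA genes, and Top1, a topoisomerase, fell by 1.26, 1.20 and 0.94 (SE 0.29, 0.22 and 0.22).

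Polymerase III factors outside the enzyme were mixed too. Snapc2 and Gtf3a, which encodes the 5S gene's own factor TFIIIA, rose by 0.85 and 0.84, and Snapc4 fell by 0.88. In the small-subunit group Tbl3, Ddx49 and Imp4 rose by 0.97, 0.92 and 0.91, and Pno1, Ddx52 and Riok1 fell by 1.17, 1.05 and 0.85. In the large-subunit group Eif6, which keeps immature large subunits from joining, rose from 42.3 and 35.3 to 98.9 and 108 CPM (log2 fold 1.41, SE 0.19, edgeR adjusted p = 0.00235), and Wdr74 and Wdr18 rose by 1.0 and 0.98. Mdn1, the giant motor ATPase that works with the complex to which Wdr18 and Tex10 belong, fell by 1.35. Tex10 itself fell by 1.55 and Surf6, a nucleolar matrix protein, fell by 1.20. Pih1d1 and Ruvbl1, which belong to the machinery that assembles snoRNPs, rose by 1.48 and 0.85, and the exonuclease gene Xrn2 fell by 0.74. Of the 26 genes that the naming rule gave, 11 were called without each library in turn, and 8 of those, Cd3eap, Ttf1, Baz2a, Tbl3, Pno1, Eif6, Mdn1 and Pih1d1, also with trends removed and with library size only. The other 15 lost the call without at least 1 library: 5 and 12 of them when Nr1d1+/+ replicates 1 and 2 were left out in turn, and 3 and 2 of them when Nr1d1-/- replicates 1 and 2 were. Exons of 13 of the 26 overlap an exon of a gene on the opposite strand. Those are Polr2f, Gtf3a, Snapc4, Ddx49, Imp4, Riok1 and Eif6 and a further 6: Cd3eap overlaps Ercc1, Tbl3 overlaps Noxo1, Pih1d1 overlaps Aldh16a1, Pno1 overlaps Wdr92, Tbp overlaps Pdcd2 and Tex10 overlaps Invs.

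Of 5 tested transcripts made by these polymerases, 4 rose and 1 did not pass (Vaultrc5, a vault RNA, log2 fold 1.56, edgeR adjusted p = 0.108). Among all tested genes 16.5% were called higher by edgeR. Rn45s, the precursor of ribosomal RNA, stood at 26600 and 28900 CPM against 50800 and 85400 CPM, without overlap but with a wide spread between the replicates labelled Nr1d1-/-. It rose by 1.30 (SE 0.42, edgeR adjusted p = 0.0434) and was not called when any library was left out (0.103, 0.0745, 0.144 and 0.363 in the order of the libraries). The polymerase III products Rmrp and Rpph1, the RNAs of the RNase MRP and RNase P enzymes, had 17 and 75 counts against 117 and 261, and 26 and 102 counts against 221 and 812. Both rose (log2 fold 2.50 and 3.45, SE 0.58 and 0.65, edgeR adjusted p = 0.0127 and 0.00572), also without each library in turn, with log2 folds that ran from 1.75 to 3.92 for Rmrp and from 2.39 to 4.74 for Rpph1 in those fits, but neither passed after removal of GC and length trends (0.158 and 0.0559). Rn4.5s rose by 1.66 (SE 0.23, edgeR adjusted p = 0.00237). Rn45s and Rn4.5s had no annotated length, and so no value with those trends removed. Rn45s took 2.94% and 3.39% of all counts in the Nr1d1+/+ libraries and 4.36% and 7.64% in those labelled Nr1d1-/-. Its sequence includes the ribosomal RNAs cut from it, so these counts do not measure the precursor alone. Depletion of ribosomal RNA from the libraries was not given in the sources used here, and the level of Rn45s depends on it. Myc, the known activator of the pathway, was at 47.3 and 57.3 CPM against 31.3 and 24.8 CPM and fell by 0.90 (SE 0.22, edgeR adjusted p = 0.0148), with an adjusted p of 0.0921 without Nr1d1+/+ replicate 2.

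**Figure D5:**
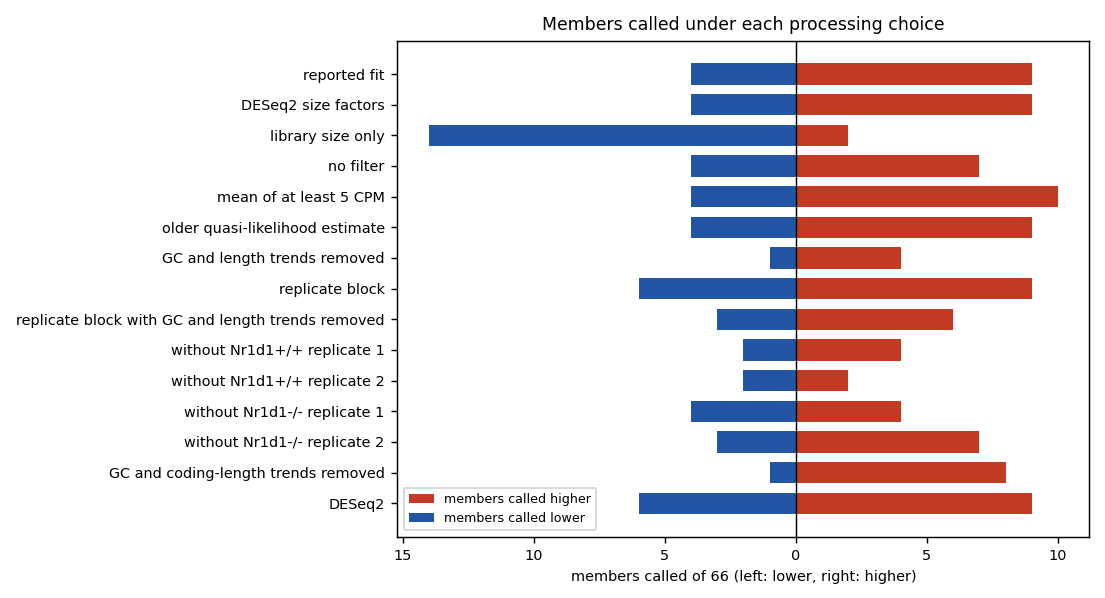
Number of the 66 members called lower (blue, left) and higher (red, right) under the reported fit and each of 14 other choices of scaling, filter, test, trend removal or libraries. The reported fit has 9 higher and 4 lower, and library size only turns this to 2 and 14. Every fit without 1 library has fewer higher calls than the reported one, as is also true of all tested genes.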

How the data were processed

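RNA sequencing was done on 4 tumour samples, 2 per genotype. Per the labels' protocols, Trizol was used for extraction and a Clontech SMARTer Stranded kit for the libraries. The submitters' processing notes name TopHat and mm10. The files deposited by the authors hold raw read counts for each gene symbol. Which program counted reads, with which annotation and use of strand, was not given in the sources used here.

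Counts were filtered with filterByExpr (minimum count 10), scaled with TMM (factors 1.11, 1.18, 0.859 and 0.895 for Nr1d1+/+ replicates 1 and 2 and Nr1d1-/- replicates 1 and 2) and compared by edgeR 4.0.16 (R 4.3.3) with its quasi-likelihood F test (legacy=FALSE). Genotype was the model's only term, leaving 2 residual degrees of freedom. The biological coefficient of variation was 0.249. P-values were adjusted over all 14801 tested genes and called under 0.05. SEs are those of the edgeR log2 folds, derived from the fit. SEs of members ran from 0.17 to 0.53, which sets the precision. The test was tested on simulated counts.

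Members and gene lists were chosen with earlier results of these data known. Named were 17 anchor members, up to 3 called members per role and direction without overlap between genotypes, the paralog pairs Polr3g/Polr3gl, Rrp1/Rrp1b and Nop56/Nop58, up to 3 other called pathway genes per role and direction, Nr1d1, Rn45s and Myc. Other members stand as ranges, 1 uncalled member is counted in every total but not reported by name here, and those named outside the rule (such as Utp23, Polr3d, Rrs1, Polr2k, Rmrp and Rpph1) were chosen after their values were seen. Lengths, GC content and gene positions came from GENCODE M21 (GRCm38), to which all 66 members matched, 1 of them by a synonym. Promoters came from RefSeq GRCm38.p6.

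Alternatives were DESeq2 1.42.0 and its size factors, library size only, no filter, a mean of at least 5 CPM, the older quasi-likelihood estimate, removal of GC and length trends (natural splines with 5 degrees of freedom per library, as offsets, 14651 genes), a replicate block, and leaving out each library. The replicate numbers in the sample titles do not say what the samples share, so the block was not part of the main test. Same-numbered samples did not deviate together (Pearson r of replicate 2 minus replicate 1 between genotypes 0.026 over 14801 genes). Figures were drawn with matplotlib 3.10.9.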

Additional observations from a re-analysis of the deposited data

How the results depend on the processing

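Relative to 9 members higher, 4 lower and a median log2 fold of 0.12, library size only gave 2, 14 and -0.25, and 11 and 49 of the other pathway genes (22 and 13). GC and length trends removed gave 4 and 1 members and 8 other genes lower. A replicate block added to that gave 6 and 3 members and again 8 other genes lower. With coding length it was 1 member and 7 other genes lower. Leaving out each library gave 2 to 7 members higher and 2 to 4 lower, 9 to 20 and 6 to 17 other genes higher and lower, and medians of 0.037 to 0.19. All tested genes also had fewer calls in those fits. The replicate block alone gave 9 and 6 members (Npm1 and Polr3d added), beside 17.7% and 18.3% of all tested genes, and 26 and 16 other genes. The 13 called members stayed called in that paired fit.

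Among the genes named by rule, only uncalled ones changed sign in the alternatives run. Library size only gave Ubtf -0.077, Ncl -0.25, Nop58 -0.0027 and Rrp1 -0.036, and, outside the rule, Polr1c -0.097, Polr1e -0.16, Taf1c -0.011, Nop10 -0.027 and Gar1 -0.25. Removing GC and length trends gave Polr1a 0.060, Rrn3 0.19, Nop14 0.0098 and Polr3g 0.13, and for members outside the naming rule Polr1c -0.14, Polr1d -0.015, Gar1 -0.48, Exosc6 -0.42 and Rrp9 -0.12. With the replicate block as well, Polr1a, Rrn3, Nop14 and Polr3g were at 0.061, 0.19, 0.0035 and 0.0745. With coding length Polr1a, Rrn3, Polr3a, Polr3b, Nop14, Pes1 and Dkc1 were at 0.30, 0.28, 0.12, 0.14, 0.31, 0.028 and 0.035. Leaving out each library gave ranges of -0.45 to 0.075 for Pes1, -0.95 to 0.23 for Polr3g, -0.38 to 0.27 for Polr3gl, -0.80 to 0.14 for Nr1d1 and, outside the rule, -0.22 to 0.52 for Polr1e, -0.83 to 0.076 for Taf1b and -0.18 to 0.35 for Gar1. Polr3gl was at 0.0053 with DESeq2 size factors, 0.026 under the 5 CPM filter and 0.0040 by DESeq2. The cause of these shifts was not tested.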

Other observations

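Other promoter motifs were counted in the same RefSeq windows, as shares of the 53 members and of all genes, on both strands. GGGCGG, the core of the GC box, stood before 62.3% of members and 35.4% of all genes, and TATAAA before 5.66% and 14.3%. ATTGG, the reversed CCAAT box, stood before 37.7% and 37.5%, GCCATNTTG (a YY1-type element) before 1.89% and 1.54%, and GCATGCGC (an NRF1-type element) before 5.66% and 2.56%. CCTTTC stood before 17% and 23.1%. Utp15, Utp20, Rrp1b, Nip7, Nop56, Nhp2, Exosc5 and Exosc8 were the called members with GGGCGG, so the element stood before members of both directions.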
